A study of Zea mays with 18 samples.

Results

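The 100 genes described here are those that gathered the most RNA sequencing reads in the quiescent centre of the maize root tip. They were chosen by their level alone: the count of each gene was divided by the total of its library and multiplied by 1000000 (CPM), and the 100 gene IDs beginning with Zm00001d with the highest mean CPM over all 18 libraries were taken. The table holds 28724 gene IDs, of which 20945 passed a low-count filter and were tested. All 100 genes passed. The rule leaves out 4 IDs, of which Zm00001d047253 (mean 4134 CPM) and Zm00001d045042 (1574 CPM) would have ranked 1 and 22, and Zm00001d033931 (776 CPM) and Zm00001d028759 (684 CPM) lay below the limit. Every ID ends in .RefGen_V4 in the deposited table, and this ending is not repeated here. No ID beginning with Zm00001d matched the table of maize gene names at hand, which belongs to another assembly, so the genes carry no names or functions here.

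The quiescent centre is a small group of rarely dividing cells that lies within the root meristem and keeps the stem cells around it undifferentiated. Phytoglobins are plant haemoglobins that remove nitric oxide, a signal that builds up when oxygen is scarce. In growing plant tissues the most abundant messages commonly encode parts of the translation machinery, histones, the cytoskeleton and enzymes of central metabolism, but which of these genes belong to which class could not be read from the table. Such messages set much of what a sequencing library consists of, and genes of this kind are often used as internal references.

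The 5-day-old seedlings were of the wild type (WT), of line S, which overexpresses ZmPgb1.1, or of line A, which has this phytoglobin down-regulated. Their roots stood in liquid medium and were taken either from normoxia (0 h) or once hypoxia, with 4% oxygen and the rest nitrogen, had lasted 12 h. This gives 6 groups of 3 libraries, WT_0h, WT_12h, S_0h, S_12h, A_0h and A_12h. The quiescent centres were dissected from the root tip after the cap had been cut away. Oxygen and time cannot be told apart, since a 12 h group in air is lacking among the labels. The sources used here do not give the promoters of the transgenes, the number of independent lines, or which plants went into which library. The p-values therefore reflect the scatter of these libraries alone, and that scatter may be technical. Neither ZmPgb1.1 nor markers of the quiescent centre could be found by name, so the labels of the lines and of the tissue were not checked. In whole tissue, fewer cells of a type and less RNA per cell cannot be told apart.

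Libraries held 35441975 to 89759585 counts, and the labels did not follow the likeness of the libraries. In Spearman correlations of log2 CPM over genes with any count, 0 of the 18 libraries had both of their 2 nearest libraries in their own group, 12 had 1 there and 6 had none. These 6 were WT_0h replicate 2, WT_12h replicate 3, S_0h replicate 3, S_12h replicate 3, A_0h replicate 3 and A_12h replicate 3, which is 1 library of each group. By their 2 nearest libraries, the 18 formed 6 sets of 3, each with 2 libraries of one label and 1 of another. WT_0h replicates 1 and 3 stood with S_0h replicate 3, WT_12h replicates 1 and 2 with WT_0h replicate 2, and S_0h replicates 1 and 2 with WT_12h replicate 3. S_12h replicates 1 and 2 stood with A_12h replicate 3, A_0h replicates 1 and 2 with S_12h replicate 3, and A_12h replicates 1 and 2 with A_0h replicate 3. Whether labels or columns were exchanged was not tested, and every comparison of labelled groups below rests on the labels as deposited. Calls and median fold changes are given with all libraries under their labels, and again without these 6. The second set of values was chosen after seeing the data. Leaving out the libraries least like their group lowers the spread within groups by construction.

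Among the 100 genes, mean CPM fell from 3350.1 at rank 1 to 859 at rank 100, a 3.90-fold range, with a median of 1165 CPM. At the limit, the 5 genes just inside had means of 866, 864, 863, 861 and 859 CPM, and the 5 just outside had 858, 857, 853, 851 and 850.2 CPM. A total of 11 genes averaged at least 2000 CPM and 31 averaged under 1000 CPM. These are shares of reads, not of molecules. Gene lengths were not used, and a longer transcript gathers more reads, so the order of the genes is an order of reads. Each of the 100 genes had between 15274 and 345416 counts in a library. At the lowest of these counts, counting error alone is 0.809% of the value, well under the differences described below.

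**Figure D1:**
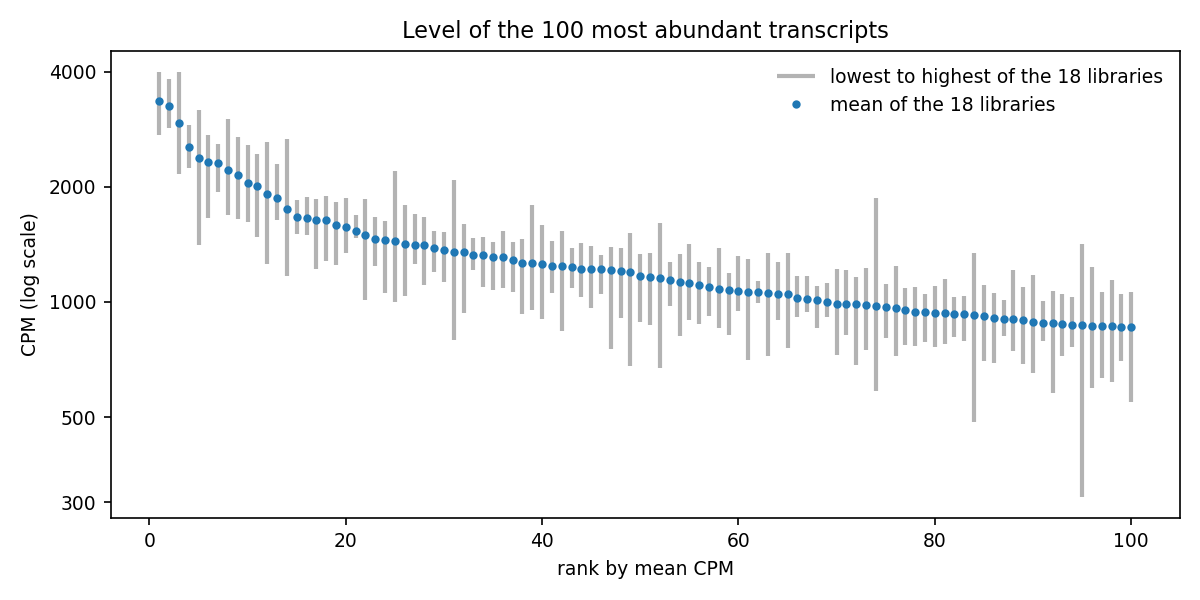
CPM on a log scale (y) against rank by mean CPM (x) for the 100 genes. Points are means of the 18 libraries and bars run from the lowest to the highest library; the bar of the gene at rank 95 is the longest, at 4.58-fold.

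The 100 genes are 0.477% of the genes tested and took 13.1% of all counts (SD 0.857, n = 18 libraries). Their share was 14.1, 13.4 and 14.1% in the 3 WT_0h libraries and 13.5, 13.4 and 13.1% in WT_12h. It averaged 13.5% (SD 0.482, n = 3) in S_0h and was 11.5, 11.5 and 13.8% in S_12h. Line A held 13.8, 13.7 and 12.8% at 0 h and 12.8, 12.9 and 11.4% at 12 h. The 3 lowest shares thus belonged to S_12h replicates 1 and 2 and A_12h replicate 3, while S_12h replicate 3 lay above all A_12h libraries. A_12h lay below WT_12h without overlap. The 10 highest genes alone held 19.4% of the summed level of the 100, and between 2.32 and 2.74% of a library's counts.

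The same libraries stood apart gene by gene. Of the 100 genes, 70 had their lowest CPM in S_12h replicate 1, S_12h replicate 2 or A_12h replicate 3, and 6 had their highest there. Of the next 900 genes by level, 46.6% had their lowest value in these 3 libraries and 20.1% their highest. Of all genes tested, 25.0% had their lowest value there and 27.0% their highest. These libraries were not the deepest: they held 65097155, 54133682 and 35441975 counts, the last of which is the lowest total of the study. The part of depth in these differences was not tested.

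Membership was broadly shared between libraries. When every library was ranked by itself, 66 of the 100 genes were among the 100 highest of all 18 libraries, and all of the 10 highest were. A library's own 100 highest held at least 76 of them (S_12h replicate 2) and at most 94 (WT_0h replicate 3), and 155 genes reached the 100 highest of some library. The genes Zm00001d047707, Zm00001d049619 and Zm00001d019283 were there in 6 libraries only, the lowest number. Zm00001d042541 fell farthest, to rank 507 in one library. The median CPM or the mean of log2(CPM + 1) in place of the mean CPM kept 97 of the 100 genes, and TMM-scaled CPM kept 100.

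**Figure D2:**
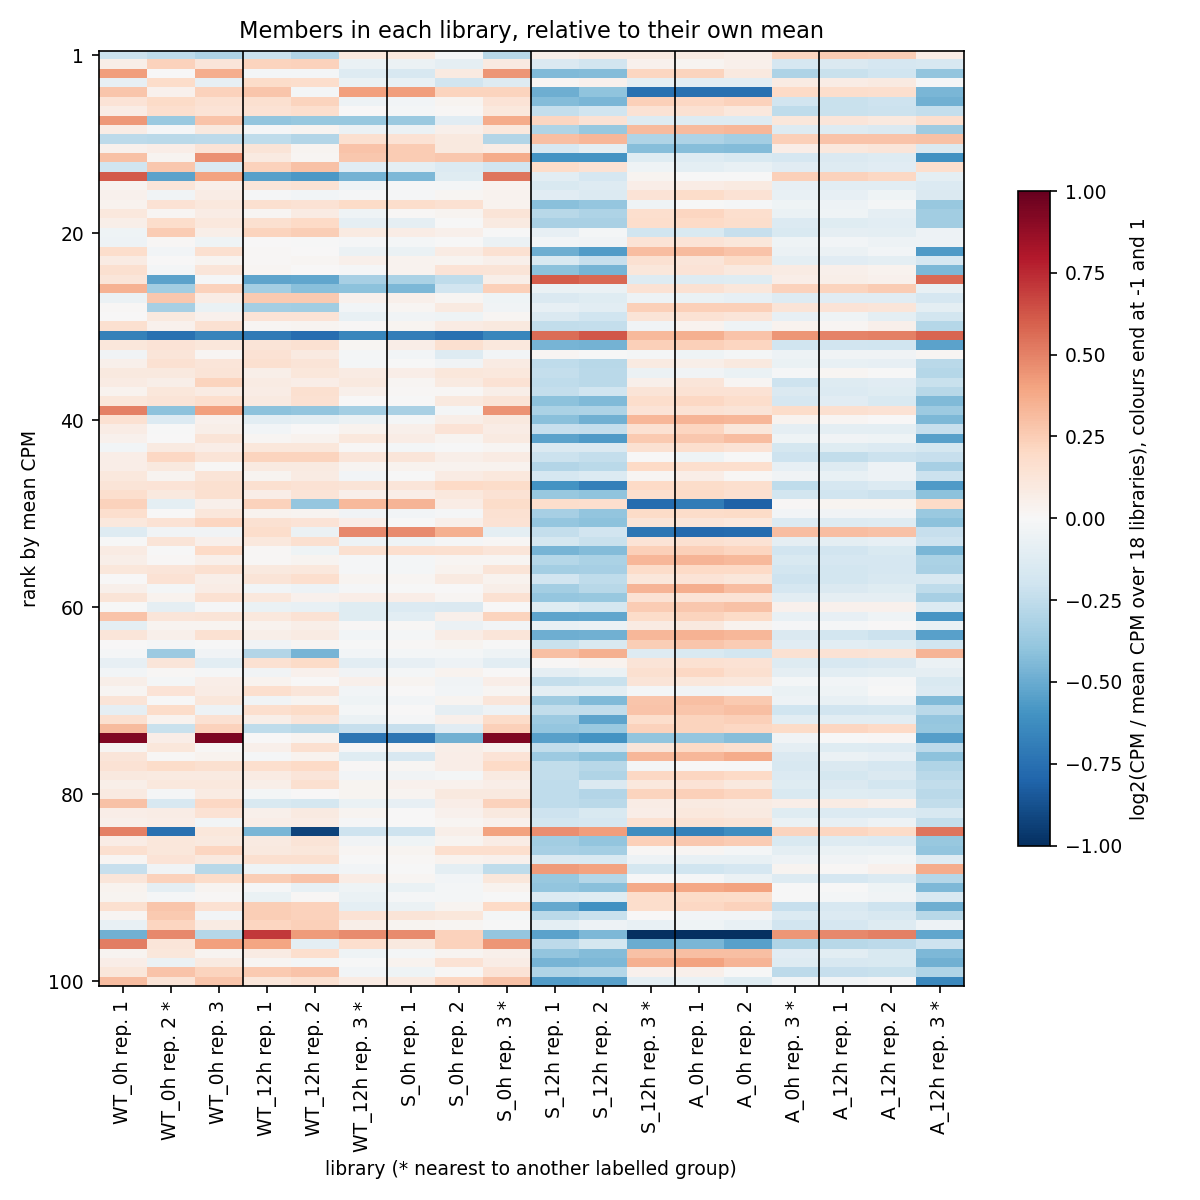
The 100 genes (rows, by rank of mean CPM) in the 18 libraries (columns, with lines between labelled groups), coloured by log2 of CPM over the gene's mean. Most rows are blue in S_12h replicates 1 and 2 and A_12h replicate 3, which hold the lowest value of 70 genes, and the row at rank 31 is low in 9 libraries and high in 9.

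Zm00001d041550 ranked first. Its values were 2886, 2803 and 2726 CPM in WT_0h, 2885, 2728 and 3598 in WT_12h, 3589, 3323 and 2765 in S_0h, 3496, 3558 and 3558 in S_12h, 3537, 3489 and 3894 in A_0h, and 3990.4, 3975 and 3503 in A_12h. A_0h lay above WT_0h without overlap, with a log2 fold change of 0.34 (SE 0.10), but this did not pass the test (edgeR adjusted p = 0.0741). The gene was at 2886 CPM or less in 5 of the 6 WT libraries and in S_0h replicate 3, and at 3323 CPM or more in the other 12. In WT_12h the single high library was replicate 3.

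Zm00001d046449 followed with a mean of 3254 CPM and ran from 2857 to 3817 CPM, with its lowest value in S_12h replicate 2. Zm00001d031168 averaged 2938 CPM and held 3936, 2939 and 3776 CPM in WT_0h against 2903, 2898 and 2689.5 in WT_12h, groups that did not overlap (log2 fold change -0.35, SE 0.21, edgeR adjusted p = 1.00). Zm00001d006008 was the steadiest of the 10 highest, between 2233 and 2897 CPM around a mean of 2548. The fifth, Zm00001d023994, was the most variable of the 10 and is described with line S below. With all 18 libraries it was also the only one of the 10 that passed an edgeR test between 2 groups.

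The next 5 lay between 2048 and 2317 CPM on average. Zm00001d012161 (mean 2317 CPM) ranged from 1660.2 to 2734 CPM, and Zm00001d035201 (2304 CPM) from 1936 to 2587. Zm00001d045431 (2215 CPM) held 2999, 1712 and 2703 CPM in WT_0h and 1685, 1699 and 1699 in WT_12h. In WT_0h only replicate 2 was near the WT_12h level. Zm00001d042525 (2144 CPM) ranged from 1651 to 2692 CPM. Zm00001d030725 (2048 CPM) held 1707, 1696 and 1709 CPM in WT_0h, and in S_12h it held 2529, 2578 and 1660.4, so that replicate 3 alone was at the WT_0h level.

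The 100 genes varied less between libraries than genes at large. Their coefficient of variation (CV, SD over mean CPM of the 18 libraries) had a median of 12.8%, with quartiles of 9.52 and 16.6%, against a median of 20.6% and quartiles of 12.2 and 47.0% over all 20945 genes tested. The next 900 genes by level had a median of 11.9%, so a low CV was not particular to the 100. The CV was under 10% for 28 of the 100 genes, against 16.1% of all genes tested, and above 25% for 8, against 43.1%. The highest library exceeded the lowest by at least 1.5-fold for 51 genes, by at least 2-fold for 11 and by at least 3-fold for 2.

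Within the labelled groups the pooled CV had a median of 10.4% for the 100 genes and 17.4% for all genes tested. With the 6 libraries left out it was 2.35 and 6.65%, while the CV over the 12 remaining libraries, at 13.0%, was close to that over 18.

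**Figure D3:**
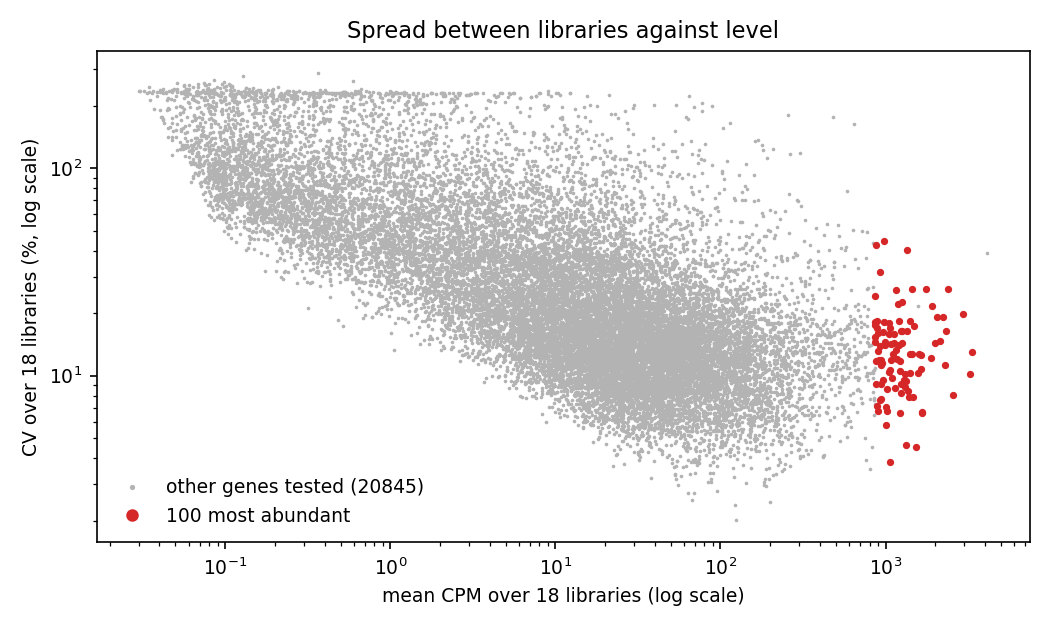
CV over the 18 libraries (y, log scale) against mean CPM (x, log scale) for the genes tested, with the 100 most abundant in red. The 100 genes have a median CV of 12.8%, against 20.6% over all genes tested.

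The steadiest gene was Zm00001d009480 (mean 1063 CPM, CV 3.83%). It held 991, 1084 and 1086 CPM in WT_0h, 1087, 1109 and 1073 in WT_12h, 1069.8, 1020.4 and 1043 in S_0h, 1009, 1021 and 1125 in S_12h, 1136, 1088 and 1055 in A_0h, and 1052, 1068 and 1016 in A_12h. Its highest library exceeded the lowest 1.15-fold. Zm00001d033128 (mean 1534 CPM, CV 4.53%) ran from 1470.3 to 1687 CPM, and Zm00001d012770 (mean 1324 CPM, CV 4.61%) from 1211 to 1467 CPM. For these 3 genes no comparison of 2 groups passed the test with all libraries, which does not show that their levels were equal.

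The most variable gene was Zm00001d038163 (mean 974 CPM, CV 44.5%). It held 1846, 1017 and 1874 CPM in WT_0h, 978, 994 and 588 in WT_12h, 586, 696 and 1858 in S_0h, 668, 644 and 740.3 in S_12h, 746, 725 and 952 in A_0h, and 969.8, 980.1 and 663 in A_12h. WT_0h replicates 1 and 3 and S_0h replicate 3 were the 3 high libraries. All others were at or below 1017 CPM. Zm00001d042541 (mean 872 CPM, CV 42.8%) was lowest in A_0h replicates 1 and 2 and S_12h replicate 3, at 319, 310.0 and 317 CPM, and highest in WT_12h replicate 1, at 1419.7 CPM. The third was Zm00001d028998, which separated WT_0h, WT_12h and S_0h from S_12h, A_0h and A_12h and is given next.

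Zm00001d028998 (rank 31, mean 1352 CPM) rose in line S under hypoxia, and at both times line A exceeded WT. It held 848, 804 and 857 CPM in WT_0h, 827, 797 and 861 in WT_12h, and 837, 806 and 861 in S_0h. In S_12h it held 1996, 2080.1 and 1695 CPM, in A_0h 1728, 1647 and 1837, and in A_12h 1912, 1919.7 and 2025. The 9 libraries of WT_0h, WT_12h and S_0h lay between 797 and 861 CPM, and the 9 others between 1647 and 2080.1. The 6 libraries nearest to another labelled group lay on the side of their own label. Each of the 6 also had its nearest libraries on that side, so this separation cannot tell whether labels were exchanged within a side.

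Its log2 fold change was 1.18 (SE 0.07, edgeR quasi-likelihood adjusted p = 2.30e-06) for S_12h against S_0h and 1.19 (SE 0.07, adjusted p = 2.00e-06) for S_12h against WT_12h. For A_0h against WT_0h it was 1.02 (SE 0.07, edgeR adjusted p = 1.62e-05), and for A_12h against WT_12h 1.21 (SE 0.07, edgeR adjusted p = 1.77e-06). Between WT_12h and WT_0h it was -0.03 (SE 0.07, edgeR adjusted p = 1.00), between S_0h and WT_0h -0.02 (SE 0.07, adjusted p = 1.00), and between A_12h and A_0h 0.15 (SE 0.07, adjusted p = 0.257). It was the gene of lowest p among the 100 in the test of a difference between lines in the response to hypoxia (edgeR adjusted p = 2.54e-04). These calls held under every alternative that was run, with each single library left out and without the 6 libraries, where the 4 log2 fold changes were 1.29, 1.29, 0.96 and 1.20. Each of the 4 comparisons set WT_0h, WT_12h or S_0h against S_12h, A_0h or A_12h. For this gene the fit without the 6 libraries therefore cannot tell whether labels were exchanged within either side.

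**Figure D4:**
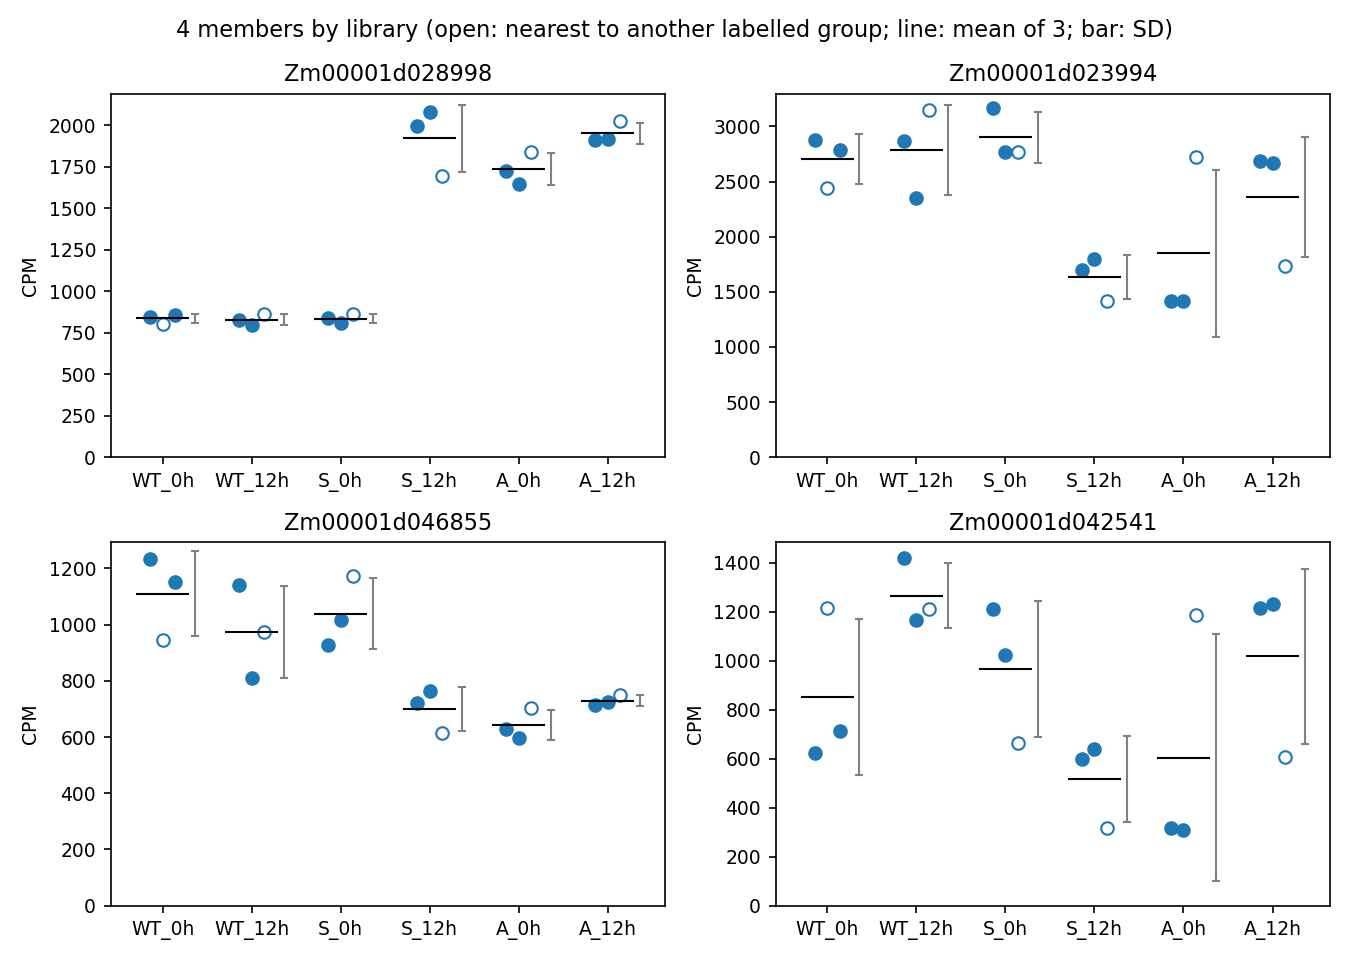
CPM (y) of 4 of the 100 genes in each library, by labelled group (x). Open points are the 6 libraries nearest to another group, lines are means of 3 libraries and bars are SD; Zm00001d028998 separates WT_0h, WT_12h and S_0h (797 to 861 CPM) from S_12h, A_0h and A_12h (1647 to 2080.1 CPM).

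Over all lines together, the test for a change with oxygen in any line called 1 of the 100 genes, Zm00001d028998, against 0.664% of all genes tested (edgeR quasi-likelihood F test, Benjamini-Hochberg adjusted p under 0.05 over all genes). It called 61 without S_12h replicate 3, against 25.2% of all genes in that fit, 9 without A_0h replicate 3, against 18.1%, and 3 without A_12h replicate 3, against 3.04%. In the fit without the 6 libraries it called 98, against 79.3%. The test for a difference between lines at either time called 11, against 10.3% of all genes. This count was 38 without S_12h replicate 3, against 23.3% of all genes, and 17 without A_0h replicate 3, against 19.8%. Leaving out WT_12h replicate 1 or 2 gave 4, against 3.74 and 3.70%, and leaving out WT_0h replicate 3, S_0h replicate 2, A_0h replicate 1 or A_0h replicate 2 gave 6, against 5.44 to 6.18%. Leaving out S_0h replicate 1, S_12h replicate 1, S_12h replicate 2, A_12h replicate 1 or A_12h replicate 2 gave 7, against 6.76 to 7.90%. All 100 were called when the 6 libraries were left out, against 82.8% of all genes. The test for a response to hypoxia that differs between lines called 1 gene, against 0.100% of all genes, 6 without A_0h replicate 3, against 12.3%, and 95 without the 6 libraries, against 66.5%.

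In the 7 comparisons of 2 groups, 17 of the 100 genes were called at least once, against 16.3% of all genes tested, and 83 in none. Comparisons that share a group, such as those with WT_12h, are not independent of each other.

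Under hypoxia, line S had 6 of the 100 genes lower than at 0 h, against 3.92% of all genes tested, and 1 higher, against 4.78%. The 7 together stand against 8.70% of all genes. The 2 that fell most were Zm00001d023994 and Zm00001d049239. Zm00001d023994 held 3168, 2767 and 2772 CPM in S_0h and 1696, 1795 and 1415 in S_12h, without overlap (log2 fold change -0.85, SE 0.23, edgeR adjusted p = 0.0341). Zm00001d049239 went from 2278, 2302 and 2465 CPM to 1259.8, 1261 and 1752, where replicate 3 was the high one (log2 fold change -0.74, SE 0.16, edgeR adjusted p = 0.0155). Zm00001d028998 was the gene that rose.

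Across the 100 genes the median log2 fold change between S_12h and S_0h was -0.17, with 85 negative values, against a median of 0.03 over all genes tested. S_12h and S_0h were without overlap for 21 of the 100, 17 of them lower in S_12h, against 28.1% of all genes. The count of calls rested on single libraries: leaving out S_0h replicate 1, 2 or 3 gave 3, 1 and 1, against 2.31, 1.07 and 1.98% of all genes, and leaving out S_12h replicate 1 or 2 gave 1, against 1.11 and 1.25%. Leaving out S_12h replicate 3 gave 62, against 28.6%. The median moved with the same libraries, to -0.10 without S_12h replicate 1 or 2 and to -0.35 without S_12h replicate 3. Zm00001d023994 lost its call without any of these libraries except S_12h replicate 3 (edgeR adjusted p from 0.0849 to 0.100), and with a replicate block (0.0633). Zm00001d049239 lost it without S_0h replicate 2 or 3 or S_12h replicate 1 or 2 (0.0579 to 0.0749). It also lost it with only S_12h and S_0h in the fit (edgeR adjusted p = 0.0909). Leaving out the 6 libraries gave 87 calls, against 54.9% of all genes, and a median of -0.30. Of these, 8 were higher, against 27.6% of all genes, and 79 lower, against 27.3%.

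In WT, 0 of the 100 genes passed the test between WT_0h and WT_12h by edgeR, limma-voom or DESeq2, and edgeR called 0% of all genes tested. At an unadjusted p under 0.05 there were 5, against 1.81% of all genes. The 2 WT groups were apart for 6 of the 100, all lower at 12 h, against 8.89% of all genes, and the median log2 fold change was -0.05 against 0.00 (-0.03 without WT_0h replicate 3 or WT_12h replicate 3). The count stayed at 0 with any single library left out. With the 6 libraries left out the median was -0.05 and 42 genes were called, against 29.2% of all genes. Of these, 15 were higher, against 13.6% of all genes, and 27 lower, against 15.6%.

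The genes named next were taken from that fit. Zm00001d042541 was at 624 and 715 CPM in WT_0h replicates 1 and 3 and at 1419.7 and 1169 in WT_12h replicates 1 and 2 (log2 fold change 0.93, SE 0.12, edgeR adjusted p = 0.00148). The 2 libraries left out held 1217 CPM in WT_0h and 1212 in WT_12h, so both lay at the WT_12h level. Zm00001d049399 went from 1633 and 1690.1 CPM to 2190.3 and 2299 (log2 fold change 0.41, SE 0.03, edgeR adjusted p = 3.51e-09), with 2256 and 1729 CPM in the libraries left out, which ran the other way.

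Zm00001d017121 fell from 2674 and 2313 CPM to 1196 and 1171 (log2 fold change -1.10, SE 0.12, edgeR adjusted p = 5.80e-04), with 1207 and 1260.1 CPM in the libraries left out. Zm00001d004729 fell from 1309 and 1002 CPM to 672 and 487 (log2 fold change -1.02, SE 0.19, edgeR adjusted p = 0.00919), with 551 and 803 CPM left out. For all 4 genes the WT_0h library left out was at or near the level of WT_12h replicates 1 and 2, and all 4 had an adjusted p of 1.00 with all libraries.

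In line A, 0 of the 100 genes passed the test between A_0h and A_12h by edgeR, limma-voom or DESeq2 with all libraries, and edgeR called 0% of all genes. At an unadjusted p under 0.05 there were 32, against 19.2% of all genes. A_0h and A_12h were without overlap for 28 of the 100, 23 of them lower at 12 h, against 17.9% of all genes. On TMM-scaled CPM there were 19 of the 100, 14 of them lower, against 17.8% of all genes, so the count was then near that share. The median log2 fold change was -0.20 against 0.02. A single library decided the count: without A_0h replicate 3, 41 genes were called, 6 higher and 35 lower, where 24.0% of all genes were called. With the 6 libraries left out the median was -0.24 and 81 genes were called, against 59.5% of all genes. Of these, 14 were higher, against 30.9% of all genes, and 67 lower, against 28.6%.

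In that fit Zm00001d042541 rose from 319 and 310.0 to 1217 and 1234 CPM, all in replicates 1 and 2 (log2 fold change 1.94, SE 0.12, edgeR adjusted p = 1.29e-05). Those left out showed the opposite, at 1186 CPM in A_0h and 607 in A_12h. Zm00001d041173 went from 674 and 680.1 CPM to 1436 and 1414 (log2 fold change 1.05, SE 0.07, edgeR adjusted p = 1.25e-06), with 1430.1 and 986 CPM left out. With all libraries their log2 fold changes were 0.75 (edgeR adjusted p = 0.314) and 0.45 (edgeR adjusted p = 0.287).

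Zm00001d028117 fell from 1344 and 1329.6 CPM to 930.2 and 909.7 (log2 fold change -0.57, SE 0.04, edgeR adjusted p = 2.19e-11), with 952 and 723 CPM in the libraries left out. Zm00001d037929 fell from 1140.3 and 1091 CPM to 774 and 776 (log2 fold change -0.55, SE 0.04, edgeR adjusted p = 1.43e-10), with 791 and 619 CPM left out. These 2 genes did not overlap between A_0h and A_12h with all libraries either, at log2 fold changes of -0.52 and -0.50, without passing the test (edgeR adjusted p = 0.257 for both).

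Before hypoxia, 0 of the 100 genes passed the test between S_0h and WT_0h by edgeR, limma-voom or DESeq2. By edgeR 0% of all genes were called. At an unadjusted p under 0.05 there were 0 of the 100, against 1.69% of all genes. S_0h and WT_0h were without overlap for 2 of the 100, against 9.53% of all genes. On TMM-scaled CPM there were 5, against 9.33%. The median log2 fold change was -0.06 against 0.00 (-0.02 without S_0h replicate 1). The count of calls stayed at 0 with any single library left out. When the 6 libraries were left out, the median was -0.10 and 56 of the 100 were called, against 20.1% of all genes. Line S was higher in 5, against 9.81% of all genes, and lower in 51, against 10.3%.

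That fit gave Zm00001d042541 at 1209.9 and 1025 CPM in S_0h replicates 1 and 2 against 624 and 715 in WT_0h replicates 1 and 3 (log2 fold change 0.70, SE 0.12, edgeR adjusted p = 0.00841). The libraries left out held 666 CPM in S_0h and 1217 in WT_0h. Zm00001d041173 was at 1603 and 1476 against 1057 and 1131 CPM (log2 fold change 0.45, SE 0.07, edgeR adjusted p = 0.00207), with 1082 and 1129 CPM left out. Zm00001d038163 was at 586 and 696 against 1846 and 1874 CPM (log2 fold change -1.58, SE 0.07, edgeR adjusted p = 1.00e-07), with 1858 and 1017 CPM left out. Zm00001d017121 was at 1279 and 1603 against 2674 and 2313 CPM (log2 fold change -0.83, SE 0.12, edgeR adjusted p = 0.00337), with 2533 and 1207 CPM left out. For all 4 genes the S_0h library left out was near the level of WT_0h replicates 1 and 3.

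After 12 h of hypoxia, 14 of the 100 genes were lower in line S than in WT, against 5.11% of all genes tested, and 2 were higher, against 6.21%. The 16 together stand against 11.3% of all genes, and for none of them did the groups overlap. Besides Zm00001d028998, the higher gene was Zm00001d003157, at 2198, 2156 and 1324 CPM in S_12h and 1005, 1007 and 1152 in WT_12h (log2 fold change 0.82, SE 0.21, edgeR adjusted p = 0.0243). The lower genes with the largest change were the 2 that also fell in line S under hypoxia. Zm00001d023994 held 2870.1, 2348 and 3147 CPM in WT_12h, above its S_12h values (log2 fold change -0.79, SE 0.23, edgeR adjusted p = 0.0384). Zm00001d049239 held 2028, 1937 and 2308 CPM there (log2 fold change -0.57, SE 0.16, edgeR adjusted p = 0.0329). All 7 genes called between S_12h and S_0h were also called here, in comparisons that share the S_12h libraries.

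The median log2 fold change of the 100 genes between S_12h and WT_12h was -0.19, with 85 negative values, against 0.03 over all genes. S_12h and WT_12h were without overlap for 26 of the 100, 20 of them lower in line S, against 26.7% of all genes. Leaving out WT_12h replicate 1 or 2 gave 1 and 2 calls, against 2.08 and 1.66% of all genes, and S_12h replicate 1 or 2 likewise 1 and 2, against 2.75 and 2.48%. Leaving out S_12h replicate 3 gave 69, against 28.2%. The median was -0.11 without S_12h replicate 1 or 2, where 74 and 73 values were negative, and -0.35 without S_12h replicate 3. Zm00001d003157 lost its call without WT_12h replicate 1 or 2 or S_12h replicate 1 or 2 (edgeR adjusted p from 0.0902 to 0.100). Zm00001d049239 lost its call without these 4 libraries or WT_12h replicate 3 (0.0742 to 0.123). Zm00001d023994 kept its call without WT_0h replicate 2, S_0h replicate 3 or any 1 library of line A, and lost it without each of the other 10 libraries (0.0502 to 0.115). A replicate block also ended the calls of Zm00001d049239 and Zm00001d023994 (edgeR adjusted p = 0.0516 and 0.0677). With only S_12h and WT_12h in the fit 1 gene was called, against 0.439% of all genes. Leaving out the 6 libraries gave 97, against 58.5% of all genes, and a median of -0.38. Of these, 11 were higher, against 30.1% of all genes, and 86 lower, against 28.4%.

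In line A at 0 h, 1 of the 100 genes was higher than in WT, against 1.50% of all genes tested, and 2 were lower, against 1.82%. The 3 together stand against 3.32% of all genes. The higher gene was Zm00001d028998. Zm00001d046855 held 629.9, 595 and 702 CPM in A_0h and 1235, 944 and 1152 in WT_0h (log2 fold change -0.83, SE 0.14, edgeR adjusted p = 0.00657). Its call held with any single library left out and ended with only A_0h and WT_0h in the fit (edgeR adjusted p = 0.0670). Zm00001d007824 held 1413, 1339.7 and 1417 CPM against 1531, 1873 and 1642 (log2 fold change -0.31, SE 0.07, edgeR adjusted p = 0.0367).

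Zm00001d007824 lost this call with only A_0h and WT_0h in the fit (edgeR adjusted p = 0.174), with a replicate block (0.0719), on library totals alone (0.0629) and without WT_0h replicate 2 or 3, WT_12h replicate 1, S_0h replicate 1 or 2, A_0h replicate 1 or 2 or A_12h replicate 1 or 2 (0.0537 to 0.143). Scaling by library totals alone thus left 1 higher and 1 lower gene, where 2.84% of all genes were called. The number called was 7 without S_12h replicate 3, against 9.59% of all genes, and 8 without A_0h replicate 3, against 14.5%. A_0h and WT_0h were without overlap for 21 of the 100, 17 of them lower in line A, against 25.8% of all genes. On TMM-scaled CPM there were 24 of the 100, 21 of them lower, against 25.8%. The median log2 fold change of the 100 was -0.06 against 0.03 over all genes, and turned to 0.02 without the 6 libraries. Leaving out A_0h replicate 3 alone gave 0.01, with 56 positive values, and leaving out A_0h replicate 1 or 2 gave -0.11 and -0.10. In the fit without the 6 libraries 64 were called, against 49.2% of all genes. Of these, 32 were higher, against 24.8% of all genes, and 32 lower, against 24.4%.

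Hypoxic line A had 8 of the 100 genes lower than hypoxic WT, against 2.59% of all genes tested, and 1 higher, against 3.88%. The 9 together stand against 6.47% of all genes. Zm00001d028998 was again the higher gene. Zm00001d049619 held 733, 736 and 699.5 CPM in A_12h and 1033, 1051 and 843 in WT_12h (log2 fold change -0.47, SE 0.12, edgeR adjusted p = 0.0388). Zm00001d014090 held 1032, 1054 and 1040.4 CPM against 1427, 1425 and 1327 (log2 fold change -0.45, SE 0.08, edgeR adjusted p = 0.00979). Every A_12h library lay below every WT_12h library for this gene. Of the 9 genes, 8 were also called between S_12h and WT_12h, and these comparisons share the WT_12h libraries.

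With all libraries, hypoxic line A and WT were apart for more of the 100 genes than any other pair of groups compared. They did not overlap in 74 of the 100, 65 lower and 9 higher in A_12h, against 36.3% of all genes tested, and TMM-scaled CPM gave the same counts, against 36.7%. The median log2 fold change was -0.23, with 85 negative values, against 0.01 over all genes. Without the 6 libraries, which leaves 2 against 2, the groups were apart for 92 genes here (73.2% of all genes), 99 between S_12h and WT_12h (77.4%), 95 between A_12h and A_0h (81.8%) and 93 between S_12h and S_0h (76.0%). The numbers were 87 between A_0h and WT_0h (74.7%), 78 between WT_12h and WT_0h (61.0%) and 67 between S_0h and WT_0h (57.3%). With all libraries, at an unadjusted p under 0.05 there were 50 of the 100, against 25.6% of all genes. The 3 A_12h libraries held 71101682, 84121755 and 35441975 counts and the WT_12h libraries 89759585, 67426241 and 79701900, and the part of depth in this separation was not tested.

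Between A_12h and WT_12h, leaving out WT_12h replicate 1 or 2 gave 1 call each, against 0.531 and 0.403% of all genes, and WT_12h replicate 3 gave 15, against 8.01%. Leaving out A_12h replicate 1, 2 or 3 gave 3, 2 and 3, against 2.21, 2.14 and 3.98%. The number was 34 without S_12h replicate 3, against 14.1% of all genes, and 14 without A_0h replicate 3, against 10.2%, although neither library belongs to these groups. Zm00001d014090 lost its call without WT_12h replicate 1 or 2 (edgeR adjusted p = 0.0562 and 0.0605). Zm00001d049619 lost it without WT_0h replicate 3, WT_12h replicate 1 or 2, S_0h replicate 1 or 2 or any A_12h library (0.0503 to 0.171). It also lost it with a replicate block (edgeR adjusted p = 0.0758) and with only A_12h and WT_12h in the fit (0.0558). Leaving out the 6 libraries gave 84, against 47.0% of all genes, and a median of -0.19. Of these, 15 were higher, against 25.8% of all genes, and 69 lower, against 21.2%.

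**Figure D5:**
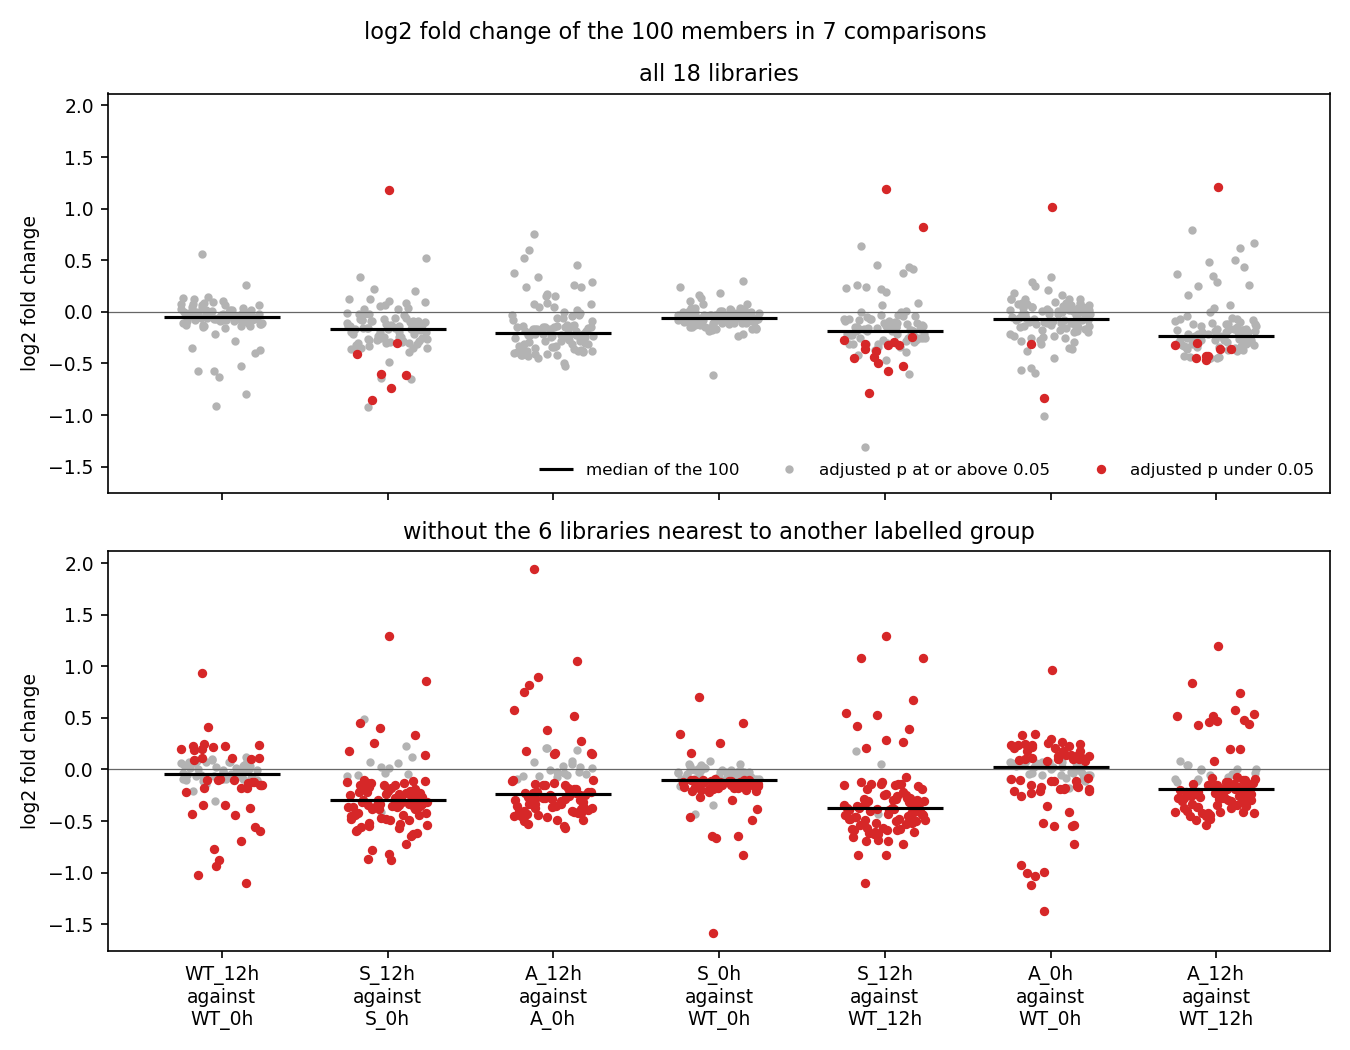
Log2 fold change (y) of the 100 genes in 7 comparisons of 2 groups (x), with all 18 libraries (top) and without the 6 libraries nearest to another group (bottom). Red points have an adjusted p under 0.05 and black lines are medians of the 100, which with all libraries run from -0.05 (WT_12h against WT_0h) to -0.23 (A_12h against WT_12h).

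With all libraries 1 gene, Zm00001d028998, was called with a change of at least 2-fold in each of the 4 comparisons that called any. The median absolute log2 fold change of the 100 ran from 0.0670 (S_0h against WT_0h) to 0.269 (A_12h against WT_12h), and that of all genes tested from 0.107 to 0.289. With all libraries it was larger for the 100 than for all genes between A_12h and WT_12h, where all genes had 0.256. Without the 6 libraries that order turned, with 0.234 for the 100 and 0.276 for all genes, and between S_12h and WT_12h the 100 had 0.411 and all genes 0.386. With the 6 libraries left out at most 4 of the 100 were called at 2-fold or more, between S_12h and WT_12h, where 20 were called at 1.5-fold or more. That fit called 58.5% of all genes there at any fold. The shares of all genes at these fold limits are not given, so the counts by fold cannot be set against genes at large.

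The 3 genes with the lowest p in the test of a response that differs between lines were Zm00001d028998, Zm00001d046855 and Zm00001d023994. Zm00001d046855 held 1139.7, 811 and 973 CPM in WT_12h, 926, 1018 and 1174 in S_0h, 721, 765 and 613 in S_12h, and 714, 724 and 751 in A_12h. Its log2 fold change was -0.60 (SE 0.14, edgeR adjusted p = 0.0208) for S_12h against S_0h and -0.50 (SE 0.14, adjusted p = 0.0325) for S_12h against WT_12h. In the fit without the 6 libraries these became -0.41 (edgeR adjusted p = 0.0672) and -0.43 (edgeR adjusted p = 0.0515), which ended both calls. They were also lost without S_12h replicate 1 or 2, the first without S_0h replicate 2 or 3 and the second without WT_12h replicate 1 or 3 (0.0502 to 0.147). Fits that held only the compared groups ended both calls (edgeR adjusted p = 0.0937 and 0.159). A replicate block ended the second (edgeR adjusted p = 0.0533).

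The difference between lines in the response was not called for Zm00001d046855 (edgeR adjusted p = 0.144) or Zm00001d023994 (edgeR adjusted p = 0.149) with all libraries. With the same libraries both were called by DESeq2 (adjusted p = 0.0279 and 0.0208), and by edgeR without A_0h replicate 3 (adjusted p = 0.0478 and 0.00909). Zm00001d023994 held 2881, 2446 and 2789 CPM in WT_0h, 1413, 1413 and 2723 in A_0h, and 2687, 2668 and 1730.2 in A_12h. In line A the high library at 0 h and the low one at 12 h were both replicate 3, which are among the 6 libraries nearest to another group. Without those 6 the difference was called for this gene (edgeR adjusted p = 1.28e-04). That fit lacks both of these replicate 3 libraries, and in this test it called 95 of the 100 genes, against 66.5% of all genes.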

How the data were processed

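The deposited values are whole-number read counts per gene, not normalised, in 1 table with 18 columns that match the sample titles. HISAT2, featureCounts and B73 RefGen_v4 were used, per the submitters' processing notes. The sources used here do not give versions, strand setting, filters or the handling of multi-mapping reads, so near-identical, overlapping or antisense genes may share reads.

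CPM was computed on library totals. Tests used edgeR 4.0.16 (filterByExpr, TMM factors from 0.975 to 1.02, robust quasi-likelihood F test, 1 mean per group, all 18 libraries, 12 residual degrees of freedom) with Benjamini-Hochberg adjustment over all 20945 genes tested and a threshold of 0.05. A standard error is the log2 fold change divided by the square root of F. Alternatives used DESeq2 1.42.0, limma 3.58.1 in R 4.3.3, RLE or no scaling factor, no filter, a replicate block, only the groups compared, each library left out, and the 6 libraries left out (6 residual degrees of freedom).

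The genes named are the 10 highest, the 3 most and 3 least variable, per comparison up to 2 rising and 2 falling calls of largest change (from the fit without the 6 libraries where none was called), and the 3 of lowest p for the difference between lines. Others are named to give a count's members. The members, rules and alternatives were chosen with earlier results of these data known. On simulated counts for S_12h against S_0h (20507 genes, changes placed among the 2000 most abundant), 40.5% of 1.5-fold and 93.8% of 2-fold changes were recovered, with 12 false calls in all. These counts were drawn independently for each library, with a capped spread and the same expected CPM in every group apart from the changes in S_12h. They held no sets of libraries that cross the labels, so they do not give the recovery or the false calls in the real libraries.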

Additional observations from a re-analysis of the deposited data

Results flagged for a closer look

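Zm00001d028998 was picked out because its response to hypoxia differed between lines by a test of the difference itself (edgeR quasi-likelihood F test, adjusted p = 2.54e-04). The log2 fold change between 12 h and 0 h was 1.18 (SE 0.07) in line S, -0.03 (SE 0.07) in WT and 0.15 (SE 0.07) in line A, whose level was already at 1728, 1647 and 1837 CPM at 0 h. All 3 S_12h libraries lay above all 3 S_0h libraries.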

How the results depend on the processing

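Numbers of the 100 genes called are given in the order S_12h against S_0h, S_12h against WT_12h, A_0h against WT_0h, A_12h against WT_12h, oxygen in any line, line at either time, line by oxygen, where all 18 libraries gave 7, 16, 3, 9, 1, 11 and 1. DESeq2 gave 12, 21, 8, 22, 9, 21 and 4. The share of all genes called by DESeq2 is not given. Whether these larger counts are particular to the 100 genes therefore cannot be told. Fits that held only the compared groups gave, for the first 4, 2, 1, 1 and 9, against 0.855, 0.439, 0.169 and 5.28% of all genes. Without the 6 libraries they were 87, 97, 64, 84, 98, 100 and 95, and for WT_12h against WT_0h, A_12h against A_0h and S_0h against WT_0h, with 0 calls in all other settings but one, 42, 81 and 56. With 1 library left out, the counts ran from 1 to 62, 1 to 69, 2 to 8, 1 to 34, 1 to 61, 4 to 38 and 1 to 6, and from 0 to 41 for A_12h against A_0h. RLE scaling, library totals, no filter and limma-voom kept each count within 1.5 times.

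The replicate numbers did not pair the libraries: correlations of same-numbered deviations ran from -0.336 to 0.541, above 0.1 in 3 of 21 pairs, and 3 of 18 libraries were nearest to their own number. With the replicate block the 7 counts were 3, 8, 2, 4, 1, 4 and 1. The shares of all genes in that fit were 3.77, 6.13, 1.36, 2.75, 0.0239, 4.37 and 0.00955%.

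Among named genes, 3 values with no call changed sign: Zm00001d042541 between S_0h and WT_0h (0.16 with all libraries) was -0.02 without WT_0h replicate 1 and without S_0h replicate 1, and ran from -0.02 to 0.50 with any 1 library left out. Zm00001d017121 (-0.21) was 0.02 without WT_0h replicate 1 and ran from -0.55 to 0.02. The share of counts stayed at 13.1% and the median CV between 11.9 and 13.5%.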
